A study of Caenorhabditis elegans with 6 samples.

Results

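The exons of the X chromosome were compared with those of the 5 autosomes in whole Caenorhabditis elegans larvae. Every merged exon (the overlapping exons of a gene joined into 1 region) that the deposited table lists on X was a member, which gave 7366 exons among 53255 nuclear exons. With the 12 mitochondrial exons the table holds 53267. The X exons belong to 1709 genes of 12786 nuclear genes, against 45889 exons of 11077 genes on the autosomes. All exons of a chromosome were taken whatever their level, so no measured value chose the members.

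The study built worm models of a mutation in sdhb-1, which encodes the iron-sulphur subunit of succinate dehydrogenase, and compared their transcriptomes with stage controls. Polyadenylated RNA of pooled whole worms was sequenced in 6 libraries, 1 for each condition. Differences between conditions therefore have no replicate check, no test across conditions was made, and the intervals below cover counting error only. The gk165, R244H and WTR genotypes all name the deletion allele.

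The gk165 library came from L2 larvae with the deletion allele sdhb-1(gk165), which per the study's methods stop development at L2. The R244H library came from L4 larvae that carry the deletion and a single-copy transgene of sdhb-1 with the Arg244His change. Its genotype is labelled sdhb-1(gk165)/mIn1;R244H, which names the balancer mIn1 of chromosome II. The labels leave unclear whether the sequenced worms still carried the balancer, and so a wild-type copy of sdhb-1, or were homozygous for the deletion, and every R244H value below is subject to that doubt. The study describes these animals as developing more slowly than their controls and as reaching adulthood without being fertile. The part of this delay in the values below was not tested. The WTR library came from L4 larvae with the deletion and the wild-type form of the transgene, and both transgenes lie on X under the promoter of sdhb-1 itself. Each transgene was made as a line of its own. The wild-type (WT) N2 strain gave 3 libraries, at L2, L3 and L4, and the sdhb-1 gene itself lies on chromosome II.

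The X chromosome is regulated in its own way in each tissue of the worm. In the somatic cells of hermaphrodites a condensin-based dosage compensation complex, recruited by SDC-2, lowers transcription of both X copies. In the germline X is largely silent, through the MES histone methyltransferases among other factors, and most genes with a germline function lie on autosomes. The germline is small in young larvae and proliferates strongly during L3 and L4, when the first sperm are made. Vitellogenin genes, which encode yolk proteins made in the intestine, lie mostly on X and switch on as the animal becomes an adult.

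The X exons were a little shorter than the autosomal ones, with a median of 203 bp against 237 bp, and X genes had a median of 3 listed exons, as autosomal genes did. X held 13.8% of the nuclear exons and 13.0% of their length. Of the protein-coding genes annotated on X, 61.1% (1670 of 2731) have a listed exon, against 62.3% of the autosomal ones. Lists of tissue genes were distributed unevenly. None of the 77 measured sperm genes, none of the 101 germline genes and none of the 10 genes that act in germline X silencing lies on X. By contrast X holds 5 of 6 vitellogenin genes, 35 of 136 neuron genes, 16 of 66 muscle genes, 27 of 159 hypodermis genes, 8 of 46 intestine genes and 4 of 12 dosage compensation genes.

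Depth was low. Between 188742 reads (WT (L2)) and 867446 reads (WT (L4)) were recovered per library, with a median of 3 to 8.5 reads per X gene. The libraries also differed in where reads fell along a gene. In genes with 4 or more listed exons, the exon nearest the 3′ end held 50.3% of the X reads in gk165, 36.4% in WT (L2), 32.8% in WT (L3), 22.7% in R244H, 26.8% in WTR and 24.4% in WT (L4), while it makes up 24.2% of their length. In autosomal genes that exon held between 23.8% (R244H) and 54.9% (gk165) of the reads and makes up 21% of the length. The part of this 3′ weighting, and of depth, in the results below was not tested, except that ratios from the 3′ exon alone are given beside them.

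The share of reads that fell on X was highest in R244H. X exons took 13.6% of the nuclear reads in R244H (95% interval 13.5 to 13.7, exact Clopper-Pearson), against 9.68% in WTR (9.6 to 9.76) and 10.2% in WT (L4) (10.1 to 10.3). The share was 9.19% in gk165 (9.08 to 9.3), against 10.3% in WT (L2) and 10.8% in WT (L3). R244H thus had the highest share of the 6 libraries and gk165 the lowest. A few abundant genes carry much of these shares: the 10 genes with the most X reads in a library held between 21.9% (WT (L2)) and 31.5% (gk165) of its X reads.

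With the 6 vitellogenin genes left out, X took 12.1% of the reads in R244H, against 8.08% in WTR and 8.97% in WT (L4). The order of the L4 libraries was kept. The gk165 library, at 9.18%, was then no longer the lowest and stood above WTR and WT (L4). Yolk genes made up 13.7% of X reads in R244H, 18.9% in WTR and 14.1% in WT (L4), and at most 0.143% in the younger larvae and gk165.

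The level of the median gene separated the libraries more sharply than the share of reads. A gene's level is given in RPKM, its reads divided by the length of its listed exons in kilobases and by the normalised library size in megareads. In R244H the median X gene had 16.2 RPKM and the median autosomal gene 13.1 RPKM, a log2 ratio of X to autosomes of 0.31. In WTR the X median was 9.89 RPKM and the autosomal one 21.7 RPKM (log2 -1.13), and in WT (L4) they were 11.1 and 20.8 RPKM (log2 -0.91). X was thus above the autosomes in the R244H library and below them in both L4 controls. An exon could enter the table through WTR and WT (L4) alone, and the part of that filter in these levels was not tested.

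In the younger stages X and autosomes were closer. The log2 ratio was -0.16 in gk165 (11.9 RPKM on X, 13.4 on autosomes), against 0.34 in WT (L2) (14.6 and 11.5) and 0.15 in WT (L3) (17.5 and 15.8). Each autosome was set against the other autosomes in the same way, and these log2 ratios lay between -0.60 (chromosome V in WTR) and 0.29 (chromosome I in WTR). The values of X in WTR and WT (L4) lie below that whole range, the values in R244H and WT (L2) lie just above it, and the other 2 lie within it. In whole worms, fewer cells of a type and less RNA per cell cannot be told apart.

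**Figure D1:**
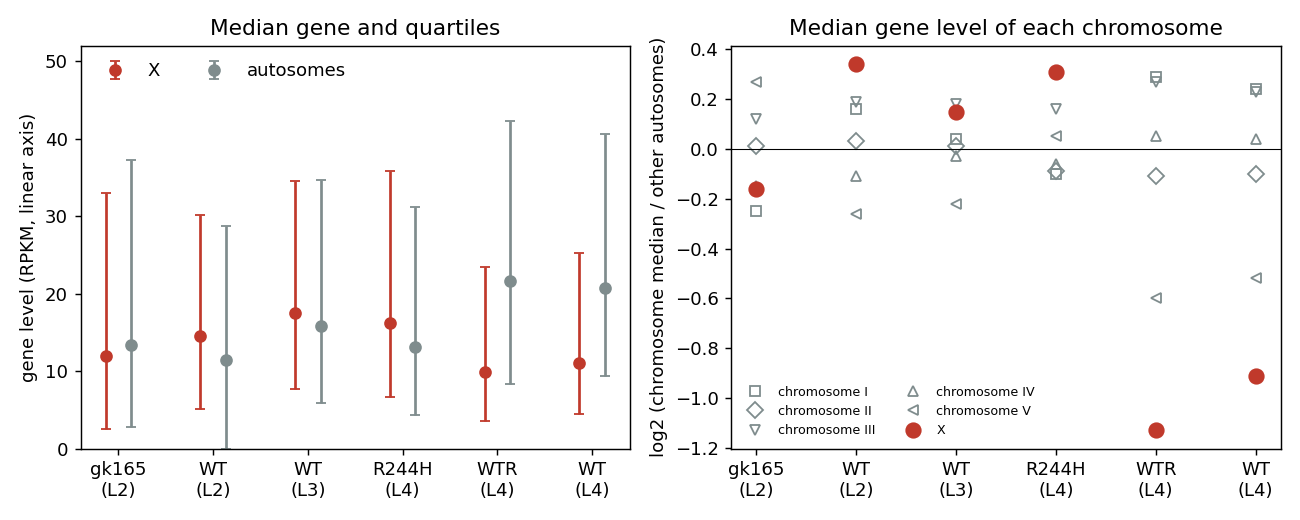
Left, level of the median gene (points) with the lower and upper quartile (bars) in RPKM for X and autosomal genes in each of the 6 libraries. Right, log2 ratio of the median level of X to that of all autosomes (filled circles), and of each autosome to the other autosomes (open symbols). X lies at 0.31 in R244H, at -1.13 in WTR and at -0.91 in WT (L4).

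Detection of single exons was compared as well. Of the X exons 15.9% had no read in R244H, against 24.6% in WTR and 13.0% in WT (L4), and of the autosomal exons 23.5%, 13.7% and 7.06% had none in the same 3 libraries. R244H was the L4 library in which X exons were missed less often than autosomal ones. In gk165 52.3% of X exons and 50% of autosomal exons had no read, against 37.8% and 43.0% in WT (L2) and 14.6% and 17.6% in WT (L3).

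These shares depend on depth, so the expected share of exons with a read was computed at 186592 nuclear reads in every library. At that depth 60.6% of X exons and 53.3% of autosomal exons would be seen in R244H, against 45.7% and 61.0% in WTR and 49.7% and 61.6% in WT (L4). In gk165 the shares were 35.9% and 38.9%, against 49.5% and 46.2% in WT (L2) and 56.2% and 54.7% in WT (L3). The X share was above the autosomal one in R244H, WT (L2) and WT (L3), and below it in gk165, WTR and WT (L4). The part of the level filter of the table in this detection was not tested either.

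In wild-type larvae X stood lower relative to autosomes at L4 than at L3. Among genes with at least 20 reads summed over both libraries, the median log2 ratio of WT (L4) to WT (L3), after adding 0.5 reads, was -0.45 over 818 X genes and 0.21 over 6556 autosomal genes, a difference of -0.66 (-0.48 from the 3′ exon alone). Each single autosome differed from all autosomes by -0.09 to 0.05. Of the X genes 227 (27.8%) were at least 2-fold lower at L4, against 13.1% of all genes tested, and 79 (9.66%) were at least 2-fold higher, against 21.7% of all genes tested.

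The X genes with the largest differences between L4 and L3 were cuticle and yolk genes. The collagen gene col-41 had 4.54 RPKM in WT (L4) and 759 RPKM in WT (L3), a log2 ratio of -7.39 (95% interval -9.01 to -6.15). The other 4 of the lowest were dpy-6, which encodes a mucin-like protein, the collagen gene dpy-7, the lipocalin-related gene lpr-6 and F46F2.3, which had 13.9 RPKM in WT (L4) and 672 RPKM in WT (L3). All 5 had 8.5 or more reads in WT (L2), so they were expressed before L4.

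The highest were 3 yolk genes, vit-2, vit-3 and vit-5, and the adult collagen genes col-181 and col-19. The vit-2 gene had 7484 reads (1890 RPKM) in WT (L4) and 1 read in WT (L3), a log2 ratio of 12.35 (9.87 to 17.65). No read of vit-5, vit-3, col-181 or col-19 was counted in WT (L3), so they were at least 517-fold, 220-fold, 290-fold and 236-fold higher at L4 against a floor of 3 reads. These genes belong to families of similar sequence, so reads may have been shared out between their members.

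Between L2 and L3 X and autosomes moved together. The median log2 ratio of WT (L3) to WT (L2) was 0.42 on X (655 genes) and 0.39 on autosomes (4391 genes), a difference of 0.03. Of the X genes 129 (19.7%) were at least 2-fold higher at L3, against 19.0% of all genes tested, and 15 (2.29%) were at least 2-fold lower, against 1.68% of all genes tested. Nearly all of the median is common to all genes: with ratios centred on the autosomal median, 62 X genes were higher and 49 lower, so the share of calls that were higher was 55.9% in place of 89.6%.

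The 5 X genes with the largest excess at L3 over L2 were nspc-17, sdc-2, col-176, nep-22 and tag-123, each with 1 to 3 reads in WT (L2). For sdc-2, which encodes the protein that brings the dosage compensation complex to X, 33 reads were counted in WT (L3) and 1 in WT (L2), a log2 ratio of 3.78 with an interval of 1.21 to 9.13. At the other end stood mec-7, the beta-tubulin of touch neurons, with 56.9 RPKM in WT (L3) and 186 RPKM in WT (L2) (log2 -1.71, -2.26 to -1.16). The hedgehog-related gene wrt-2, F40E10.5, the astacin protease gene nas-15 and unc-97, a gene of muscle attachment, followed with log2 ratios between -0.95 and -0.73.

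In R244H the X genes were higher and the autosomal genes lower than in both L4 controls. R244H over WT (L4) gave a median log2 ratio of 0.40 over 738 X genes and -0.47 over 6076 autosomal genes, a difference of 0.87. Against WTR it was 0.69 over 652 X genes and -0.47 over 5366 autosomal genes, a difference of 1.16. From the 3′ exon alone the differences were 0.66 and 0.81. The 2 comparisons share the R244H library. Single autosomes differed from all autosomes by -0.16 (chromosome I) to 0.23 (chromosome V) in both, so X lay far outside the range of the autosomes.

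Counted by gene, 174 of 738 X genes (23.6%) were at least 2-fold higher in R244H than in WT (L4), against 11.5% of all genes tested, and 48 (6.5%) were at least 2-fold lower, against 30.4% of all genes tested. Against WTR 220 of 652 (33.7%) were higher, against 14.4% of all genes tested, and 33 (5.06%) were lower, against 30.5%. The split depends on the scale set for all genes, whose autosomal median was -0.47. With ratios centred on that median, 321 X genes were higher and 26 lower than in WT (L4), so that 92.5% of the calls were higher in place of 78.4%.

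Against both controls at once 133 of 637 X genes (20.9%) were at least 2-fold higher, with 9.42% of all genes tested, and 22 (3.45%) were at least 2-fold lower, with 24.4% of all genes tested. X thus supplied 24.0% of the genes higher in R244H and 1.54% of the genes lower in it. Among the autosomes the share of higher genes was largest on chromosome V at 12.7% and smallest on chromosome I at 4.08%. The share of lower genes ran from 21.9% on V to 29.7% on I, so no autosome came near the 3.45% of X.

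**Figure D2:**
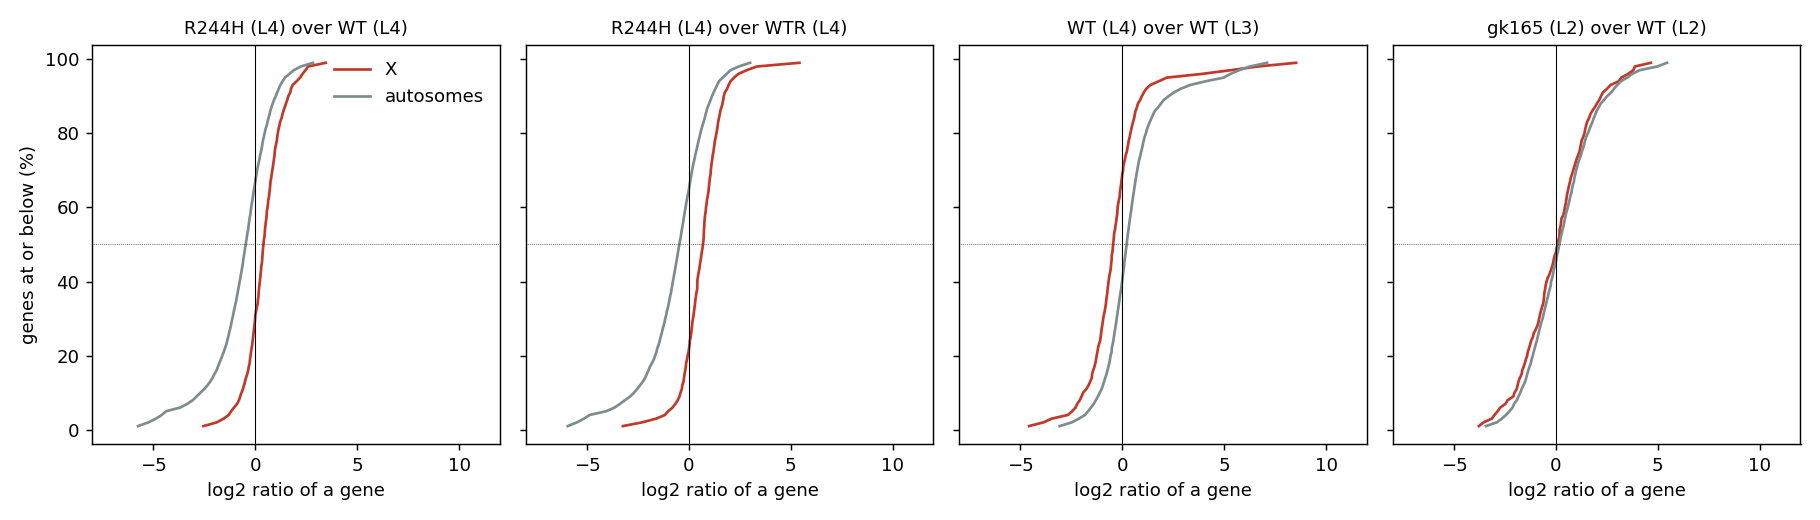
Cumulative share of genes (percent, vertical axis) at or below each log2 ratio (horizontal axis) for X and autosomal genes, drawn between the 1st and 99th percentile in 4 comparisons of 2 libraries each. The X curve lies to the right of the autosomal curve in both R244H panels, to its left in WT (L4) over WT (L3) except in the upper tail, and close to it in gk165 over WT (L2).

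The same picture held at the level of single exons. Of the 7366 X exons 1018 had at least 20 reads summed over R244H and WT (L4), and their median log2 ratio was 0.29, against -0.28 over 8038 autosomal exons. Of the X exons 211 (20.7%) were at least 2-fold higher, against 11.8% of all exons tested, and 80 (7.86%) at least 2-fold lower, against 24.4%. Against WTR the exon medians were 0.54 over 747 X exons and -0.17 over 5973 autosomal exons. For WT (L4) over WT (L3) they were -0.21 on X and 0.13 on autosomes. Exons of 1 gene share its reads and are no separate measurements of a condition.

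The gap between X and autosomes was smallest among genes of high level in both R244H comparisons. Genes were divided by their mean over the 6 libraries, and in R244H over WT (L4) the X median minus the autosomal median was 1.78 for genes under 10 RPKM, 1.15 from 10 to 30, 0.77 from 30 to 100 and 0.45 at 100 RPKM or more. Against WTR the values were 2.34, 1.59, 1.01 and 0.45, and for WT (L4) over WT (L3) -1.21, -0.96, -0.51 and -0.13. Most of that slope lies on the autosomal side. In R244H over WT (L4) the X medians of the 4 groups were 0.28, 0.40, 0.48 and 0.36, while the autosomal medians were -1.50, -0.75, -0.29 and -0.09. The minimum of 20 reads left few genes in the lowest group, 47 of 551 on X and 314 of 2930 on autosomes in R244H over WT (L4), and 29 X genes against WTR. Such genes could pass through the library in which they were high, and WT (L4) was the deeper one.

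The groups were therefore also compared by reads summed over all their genes, with no minimum. The log2 ratio of these sums on X minus that on autosomes was 1.19, 1.01, 0.62 and 0.25 from the lowest to the highest group in R244H over WT (L4), and 1.25, 1.30, 0.82 and 0.25 in R244H over WTR. For WT (L4) over WT (L3) it was -0.99, -0.83, -0.37 and 0.23, so the sign turned in the group of 100 RPKM or more, which holds the abundant yolk genes. The values of the lowest group were thus smaller than the medians, and against WTR the second group lay above the lowest.

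**Figure D3:**
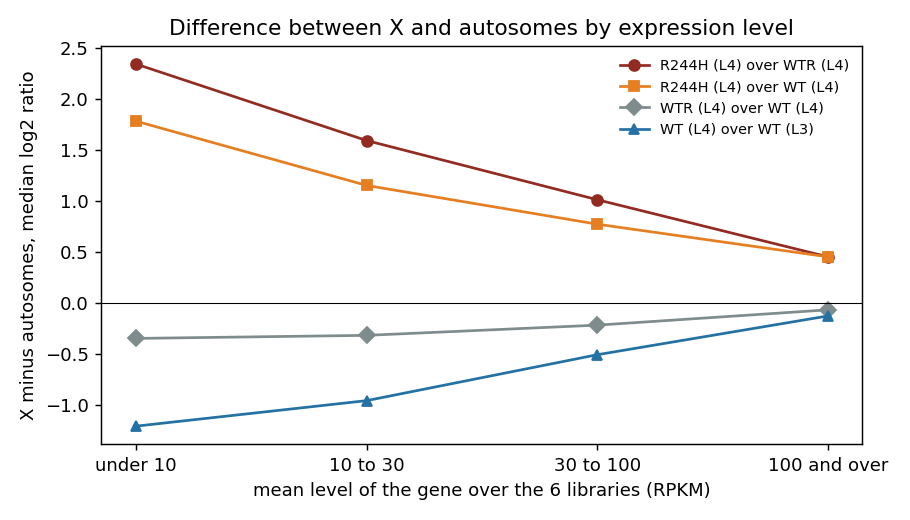
Median log2 ratio of X genes minus that of autosomal genes (vertical axis) for genes grouped by their mean level over the 6 libraries in RPKM (horizontal axis), in 4 comparisons, with genes of at least 20 reads summed over both libraries. In R244H over WTR the difference is 2.34 below 10 RPKM and 0.45 at 100 RPKM and over, while WT (L4) over WT (L3) runs from -1.21 to -0.13.

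The difference was seen along the whole of X. In each of 6 segments of 3 Mb the X genes exceeded the autosomal median, by 0.76 to 0.95 in R244H over WT (L4) and by 1 to 1.26 in R244H over WTR. In WT (L4) over WT (L3) the segments lay between -0.79 and -0.41. All segments thus had the sign of the whole chromosome in these 3 comparisons.

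The autosomal side of the R244H comparison holds the germline and sperm genes. Of the 147 germline and sperm genes tested, all autosomal, 141 were at least 2-fold lower in R244H than in WT (L4) and none was higher, with a median log2 ratio of -3.47. Against WTR 131 of 137 were lower (median -3.91). Of all genes tested 30.4% and 30.5% were lower in these comparisons. A gene with few reads in R244H could pass the minimum of 20 summed reads through the L4 control alone. The counts of these lists therefore lean toward lower calls. The 8 germline markers were gld-1, glp-1, glh-1, pgl-1, him-3, syp-1, rme-2 and oma-2. They summed to 267 CPM (reads per megaread of the normalised library size) in R244H, against 2180 CPM in WTR and 1980 CPM in WT (L4). None of them was at 0 in these 3 libraries. The 32 msp genes, which encode major sperm proteins, summed to 40.9 CPM in R244H, where 20 of them had no read, against 2960 CPM in WTR and 2150 CPM in WT (L4).

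From L3 to L4 in WT 134 of 149 of these genes were at least 2-fold higher and none lower (median 3.92), against 21.7% of all genes higher. Here and in the comparisons below such genes could also pass through the library in which they were high. Their counts lean toward that direction. From L2 to L3 their median was 0.56 over 31 genes, where X minus autosomes was 0.03. In gk165 over WT (L3) 18 of 30 were lower and 1 higher (median -1.17), against 35.0% and 17.0% of all genes, and X minus autosomes was -0.21. R244H over WT (L4) and gk165 over WT (L3) differ in stage and in the number of these genes tested, at 147 and 30. Whether the levels of germline genes and of X are linked was not tested in either. With both lists left out, the difference between X and autosomes was 0.84 in R244H over WT (L4), 1.12 in R244H over WTR and -0.64 in WT (L4) over WT (L3). The lists hold only the best known germline genes, and the part of other germline transcripts was not tested. Of the 10 genes for germline X silencing, among them the MES factors, 8 could be tested, and 4 of them were at least 2-fold lower in R244H than in WT (L4) and 7 lower than in WTR, with medians of -1.17 and -1.38. Of all autosomal genes tested 33.3% and 33.6% were lower in the same comparisons.

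Pooled over 4 somatic lists, genes of X and of autosomes had closer medians than the whole chromosomes did. Over the neuron, muscle, hypodermis and intestine lists R244H over WT (L4) had a median log2 ratio of 0.19 for 52 X genes and 0.14 for 240 autosomal genes. Against WTR it was 0.40 for 49 X genes and 0.40 for 229 autosomal genes. From L3 to L4 in WT it was -0.67 for 66 X genes and -0.29 for 261 autosomal ones. Of the 52 X members 10 were at least 2-fold higher in R244H than in WT (L4), with 11.5% of all genes and 23.6% of all X genes tested, and 1 was lower. That count lies near the share of all X genes. By list, the X median in R244H over WT (L4) lay above the autosomal one for hypodermis (0.41 and -0.06) and neuron genes (0.95 and 0.59). It lay below it for muscle (-0.36 and -0.24) and intestine genes (0.17 and 0.43). The lists were not matched by level to the chromosomes.

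Taken list by list, neuron genes were the highest of the somatic lists in R244H, on X and on autosomes alike. Of 11 X genes of that list 5 were at least 2-fold higher than in WT (L4) (median 0.95) and of 54 autosomal ones 16 (median 0.59), with none lower. Of all genes tested 11.5% were higher, with 23.6% of X genes and 10.1% of autosomal genes. The calcium channel gene unc-2 had 19.2 RPKM in R244H, against 2.82 RPKM in WTR and 8.96 RPKM in WT (L4). The neuropeptide gene flp-12 had 132 RPKM, against 39.7 and 41.4 RPKM. Muscle genes of X had a median of -0.36 over 15 genes against WT (L4), with none past 2-fold, and of 0 over 14 genes against WTR, with 2 at least 2-fold higher. Of all X genes tested 33.7% were higher than in WTR. The troponin T gene tnt-2 had 624 RPKM in R244H, against 525 RPKM in WTR and 794 RPKM in WT (L4).

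Intestine genes of X had medians of 0.17 against WT (L4) and 0.33 against WTR over 7 genes, none past 2-fold. The protease gene cpr-6 had 768 RPKM in R244H, against 581 RPKM in WTR and 466 RPKM in WT (L4). Hypodermis genes of X varied most: of 19 tested 5 were at least 2-fold higher and 1 lower than in WT (L4), and the log2 ratios ran from -1.69 to 5.51. Of all X genes tested 23.6% were higher and 6.5% lower, so the count of higher genes lies near that share. Some members of that list first appeared at L4. The collagens col-19, col-175, col-178, col-179, col-181 and col-184 had 256 to 1560 RPKM in R244H and 125 to 1430 RPKM in WT (L4), and in the L2 and L3 wild type no more than 1 read each.

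**Figure D4:**
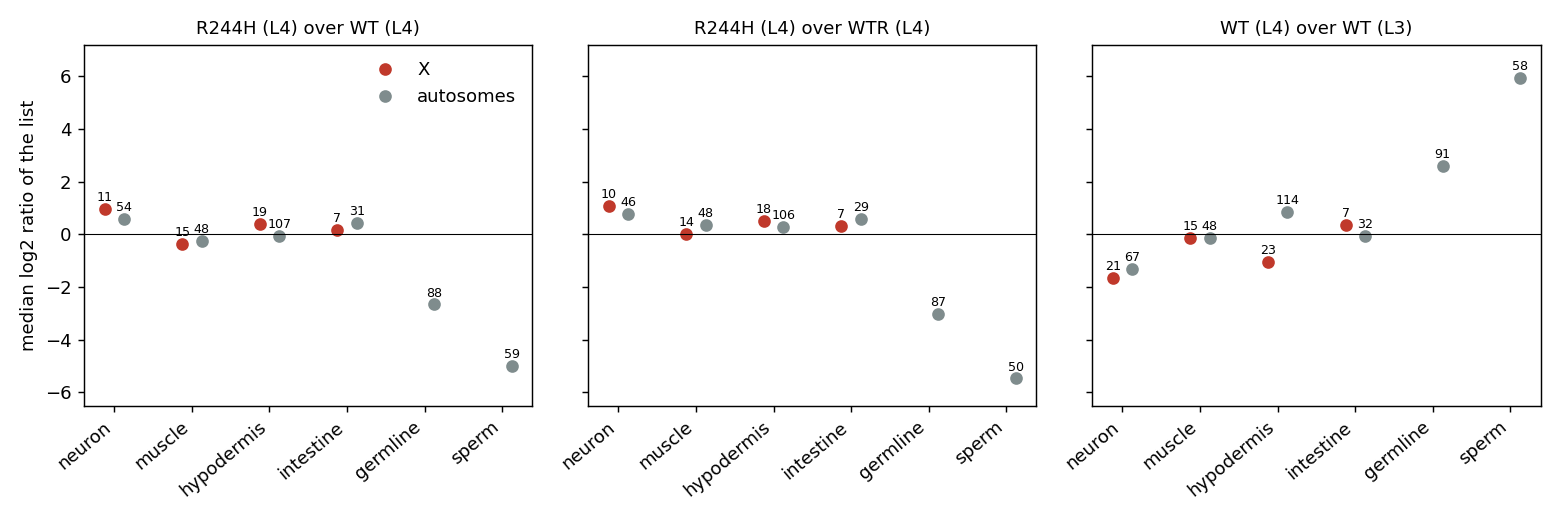
Median log2 ratio (vertical axis) of the X and autosomal members of 6 tissue lists in 3 comparisons, with the number of genes tested above each point. The germline and sperm lists have autosomal members only, at -2.66 and -4.99 in R244H over WT (L4), and the points of the 4 somatic lists lie between -1.67 and 1.08.

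The 5 X genes with the largest excess in R244H over both controls encode cuticle collagens and lipocalin-related proteins of the apical matrix. They are shown by library in the plot of named genes. The collagen gene col-176 (chromosome X, 10077597 to 10078602 of WBcel235, plus strand) had 446 RPKM in R244H, 2 RPKM in WTR and 9.16 RPKM in WT (L4). The younger wild-type larvae had 13.5 RPKM at L2 and 145 RPKM at L3. Set against WT (L4) the log2 ratio of col-176 was 5.61 (4.53 to 6.94). Set against WTR, which had 1 read, it was 7.80 (5.30 to 13.11).

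The collagen gene dpy-7, which shapes the furrows of the cuticle, had 32 reads in R244H (68.3 RPKM), none in WTR and 2 in WT (L4), with 93.5 RPKM at L2 and 123 RPKM at L3 in wild type. Its R244H level exceeded that of WTR by at least 14.2-fold, and its log2 ratio to WT (L4) was 5.03 (3.06 to 8.14). The furrow collagen gene dpy-8 had 160 RPKM in R244H, 1.27 RPKM in WTR and 9.09 RPKM in WT (L4) (log2 4.13 to WT (L4), 3.22 to 5.18), and another annotated gene overlaps its exons. In WT (L2) and WT (L3) dpy-8 had 146 and 185 RPKM.

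The genes lpr-3 and lpr-5 lie beside lpr-6 within X positions 11057401 to 11064539 of WBcel235. Another annotated gene overlaps lpr-3. In R244H lpr-3 had 56.9 RPKM, against 4.63 RPKM in WTR and 3.63 RPKM in WT (L4), and lpr-5 had 44.9 RPKM, against 1.77 and 2.89 RPKM. Their log2 ratios to WT (L4) were 3.97 (2.74 to 5.49) and 3.96 (2.61 to 5.66). Each of the 5 genes had more in WT (L2) and in WT (L3) than in either L4 control. That all 5 were high in R244H and low in WTR and WT (L4) follows from how they were chosen. Their levels in WT (L2) and WT (L3) were not part of that choice.

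The 5 X genes with the largest deficit were wrt-4, ilys-5, F23A7.4, ule-5 and C39D10.7. The hedgehog-related gene wrt-4 had 8.11 RPKM in R244H, 80.1 RPKM in WTR and 109 RPKM in WT (L4) (log2 to WT (L4) -3.75, -5.22 to -2.60), and all 5 of its exons with enough reads had a ratio below 0. The lysozyme gene ilys-5 had 156 RPKM in R244H, 1390 RPKM in WTR and 1460 RPKM in WT (L4), with log2 ratios of -3.16 to WTR and -3.23 to WT (L4). Its 5 exons lay between -3.44 and -2.94 against WT (L4).

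The gene ule-5, named for expression in the uterine lumen, had 16.1 RPKM in R244H, 220 RPKM in WTR and 116 RPKM in WT (L4), and no read in WT (L2) or WT (L3). C39D10.7 had 15.8 RPKM in R244H, 95.5 RPKM in WTR and 72.8 RPKM in WT (L4), and likewise no read in WT (L2) or WT (L3). F23A7.4 had 21.9 RPKM in R244H and between 131 and 172 RPKM in the 4 wild-type and WTR libraries. Of the 5 genes, ule-5 and C39D10.7 were thus first seen at L4, while younger wild-type larvae also had reads of the other 3.

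**Figure D5:**
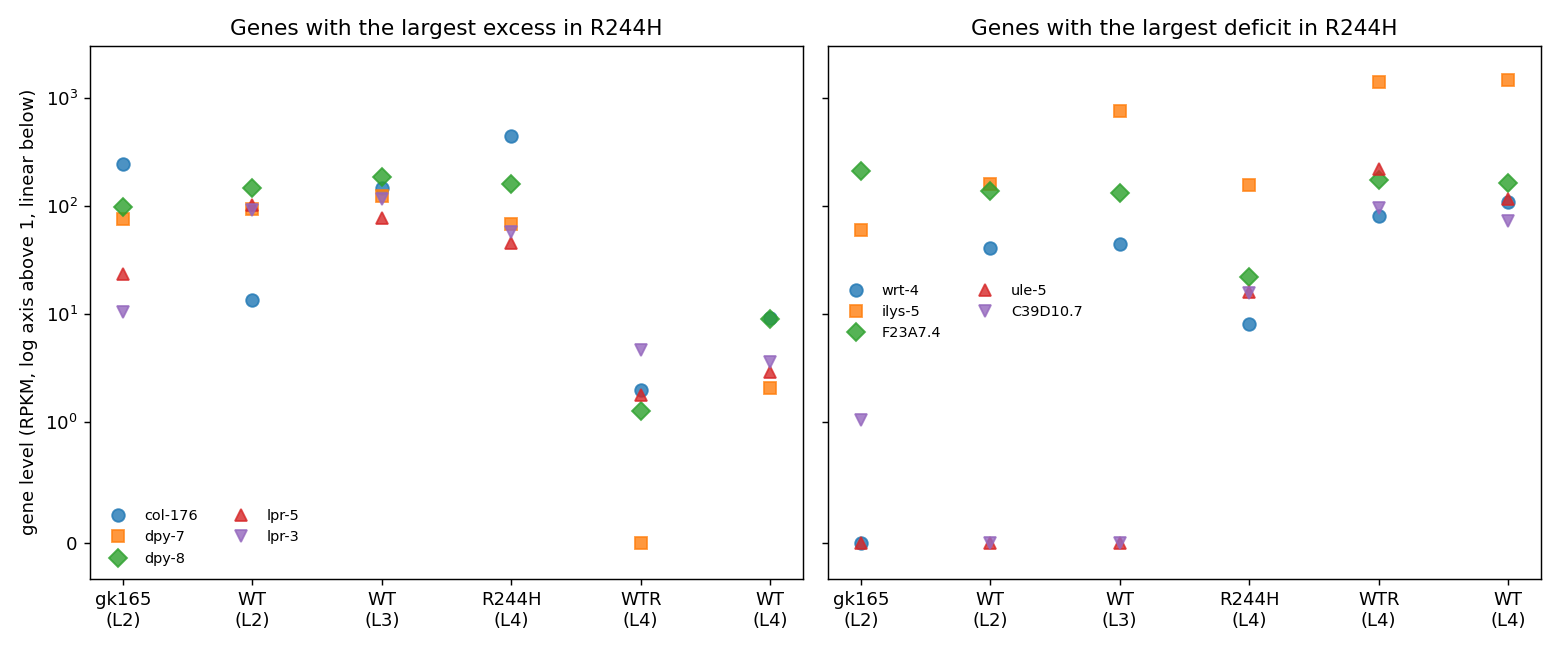
Level of the 5 X genes with the largest excess (left) and the 5 with the largest deficit (right) in R244H over both L4 controls, in RPKM on an axis that is logarithmic above 1 and linear below, by library. On the left R244H lies between 44.9 and 446 RPKM and the WTR and WT (L4) libraries at 9.16 RPKM or less.

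The most abundant X genes were chosen by reads and not by ratio, and their ratios in R244H varied. By reads summed over the libraries these were vit-2, the actin gene act-4, the ribosomal protein gene rpl-11.2, the protein disulphide isomerase gene pdi-2, the elongation factor gene eef-1A.2, vit-5, F46H5.3, the basement membrane collagen gene let-2, the saposin-like gene spp-14 and the chaperone gene hsp-3. The eef-1A.2 gene had 1390 RPKM in R244H, against 583 RPKM in WTR and 832 RPKM in WT (L4), log2 ratios of 1.25 (1.10 to 1.40) and 0.74 (0.62 to 0.86). For act-4 the values were 2170, 2000 and 2780 RPKM, so it stood between its controls, and the log2 ratio was 0.12 to WTR and -0.36 to WT (L4). The let-2 gene also stood between them, with 370 RPKM in R244H, 252 RPKM in WTR and 463 RPKM in WT (L4). The spp-14 gene was higher in R244H than in both controls, with its values given below.

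Exons of these genes give an idea of the spread within a gene. Of the 19 exons of let-2, 16 had enough reads in R244H and WT (L4), and their log2 ratios ran from -0.92 to 0.43 with 13 below 0. The 4 exons of act-4 lay between -0.43 and -0.16.

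Vitellogenin genes of X were expressed in every L4 library, and their ratios differed between genes. The vit-3 gene had 139 RPKM in R244H, 326 RPKM in WTR and 240 RPKM in WT (L4), and vit-4 had 138, 257 and 210 RPKM. The vit-2 gene had 2500 RPKM in R244H, 2060 RPKM in WTR and 1890 RPKM in WT (L4). The log2 ratios of the 5 X vitellogenin genes in R244H ran from -0.79 (vit-3) to 0.41 (vit-2) against WT (L4) and from -1.23 (vit-3) to 0.28 (vit-2) against WTR, and vit-3 was the one past 2-fold, lower than in WTR. In gk165 vit-2 had 25 reads (18.3 RPKM), against 1 read in WT (L2) and 1 read in WT (L3).

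WTR and WT (L4), the 2 L4 libraries with wild-type sdhb-1, differed less from each other. The median log2 ratio of WTR to WT (L4) was -0.20 over 699 X genes and 0.04 over 6492 autosomal genes, a difference of -0.23. Single autosomes lay between -0.02 and 0.03. Of the X genes 21 (3%) were at least 2-fold higher, against 4.14% of all genes tested, and 56 (8.01%) at least 2-fold lower, against 4.20%. Germline and sperm genes had a median of 0.34 in the same comparison, with 23 of 159 at least 2-fold higher and none lower.

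In gk165 the difference between X and autosomes depended on the control and the measure. The median log2 ratio of gk165 to WT (L2) was 0.09 over 433 X genes and 0.17 over 3016 autosomal genes, a difference of -0.08. Against WT (L3) it was -0.62 over 701 X genes and -0.42 over 4841 autosomal genes, a difference of -0.21. Single autosomes lay between -0.14 and 0.31 against WT (L2) and between -0.07 and 0.23 against WT (L3), with chromosome V highest in both, so X lay inside that range in the comparison with WT (L2) and below it in the other. From the 3′ exon alone the differences were -0.18 and -0.28, and from medians over single exons of the deposited values 0 and -0.52. In gk165 52.3% of X exons and 50% of autosomal exons had no read. Over exons with at least 20 reads in the 2 libraries, the medians against WT (L3) were -0.63 on X and -0.48 on autosomes. Against WT (L2) they were 0.27 and 0.30. By the level of the median gene, the log2 ratio of X to autosomes was -0.16 in gk165, against 0.34 in WT (L2) and 0.15 in WT (L3), as given above.

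Single X genes were spread widely in gk165. Against WT (L2) 119 (27.5%) were at least 2-fold higher, against 29.6% of all genes tested, and 117 (27.0%) at least 2-fold lower, against 23.4%. Against WT (L3) 103 (14.7%) were higher, against 17.0%, and 286 (40.8%) lower, against 35.0%. With ratios centred on the autosomal median of -0.42, 39.0% of the X calls against WT (L3) were higher in place of 26.5%. Against both controls 72 of 432 X genes (16.7%) were higher, with 19.8% of all genes tested, and 107 (24.8%) lower, with 21.2%. These shares are near the background.

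The largest excess in gk165 over both controls was that of C18A11.1, with 112 reads (520 RPKM) in gk165, 5 in WT (L3) and none in WT (L2). The gk165 level exceeded that of WT (L2) by at least 31.4-fold. Set against WT (L3) the log2 ratio was 5.50 (4.23 to 7.15). The transthyretin-related gene ttr-37 had 245 RPKM in gk165, none in WT (L2) and 12.8 RPKM in WT (L3). The remaining 3 were spp-14, the acyltransferase-like gene oac-14 and F48D6.4.

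The spp-14 gene (X, 7725955 to 7726383) had 32300 RPKM in gk165, against 1550 RPKM in WT (L2) and 1880 RPKM in WT (L3), log2 ratios of 4.38 (4.13 to 4.64) and 4.10 (3.95 to 4.25). Its 3389 reads made up 13.4% of all X reads of gk165. The gene was also higher in R244H, at 2490 RPKM, against 1220 RPKM in WTR and 836 RPKM in WT (L4), as were oac-14 (107, against 23.6 and 17.6 RPKM) and F48D6.4 (654, against 213 and 230 RPKM).

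The largest deficits in gk165 were those of unc-115, bus-8, C15C7.5, sams-1 and nas-15. The S-adenosylmethionine synthetase gene sams-1 had 30.6 RPKM in gk165, against 295 RPKM in WT (L2) and 452 RPKM in WT (L3), log2 ratios of -3.27 (-4.09 to -2.54) and -3.88 (-4.68 to -3.19). Its tested exons, 2 against WT (L2) and 3 against WT (L3), all had ratios below 0. The other 4 genes had 3 reads each in gk165. For unc-115, an actin-binding protein of growing axons, this gave log2 ratios of -3.95 (-6.29 to -2.30) to WT (L2) and -4.10 (-6.41 to -2.52) to WT (L3), and for bus-8, which acts in the cuticle surface, of -3.87 (-6.22 to -2.22) and -3.90 (-6.20 to -2.30).

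Pooled over the somatic lists, X and autosomal genes had similar medians in gk165. The 4 somatic lists had a median log2 ratio to WT (L2) of -0.60 over 42 X genes and -0.63 over 195 autosomal genes, and to WT (L3) of -1.01 over 59 and -1.18 over 231. Muscle genes of X had a median of -0.70 (6 of 13 at least 2-fold lower than in WT (L2), 1 higher), and autosomal ones -0.93 (22 of 46 lower, 1 higher), where 23.4% of all genes tested were lower and 29.6% higher. Neuron genes differed between X and autosomes, with medians of -0.53 over 11 X genes and 0.16 over 56 autosomal genes to WT (L2), and of -0.32 over 22 and 0.03 over 71 to WT (L3). Intestine genes depended on the control. Their medians to WT (L2) were 1 over 5 X genes and 1.01 over 26 autosomal genes, while to WT (L3) they were -0.63 over 7 X genes, of which 3 were at least 2-fold lower and none higher, and -0.03 over 31 autosomal genes. Of all X genes tested against WT (L3) 40.8% were lower and 14.7% higher. Of the germline list 12 genes could be tested against WT (L2), with a median of -0.53. Against WT (L3) 30 could be tested, with a median of -1.17, as given above.

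The 4 dosage compensation genes on X, sdc-1, sdc-2, fox-1 and ceh-39, had few reads, and sdc-2 alone had over 20 in a library. It had 12.7 RPKM in R244H, against 4.06 RPKM in WTR and 6.60 RPKM in WT (L4), log2 ratios of 1.65 (0.81 to 2.52) and 0.95 (0.32 to 1.61). In gk165 it had 1.74 RPKM, against 0.516 RPKM in WT (L2) and 7.11 RPKM in WT (L3). The autosomal members of the list had a median of -0.83 over 7 genes in R244H against WT (L4), with 3 at least 2-fold lower and none higher, against 33.3% of all autosomal genes lower. Against WTR their median was also -0.83, with 3 lower and 1 higher.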

How the data were processed

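The authors trimmed the reads with Trim Galore 0.4.1 and cutadapt 1.14, aligned them with TopHat2 2.1.0 and Bowtie2 to WBcel235, counted them per merged exon and normalised with edgeR 3.26.8, per the labels and the methods. They deposited log2 RPKM values of 53267 exons. The offset in these values was found to be 0.54 CPM, or 0.25 reads in a library of mean size, and each listed exon has at least 2.69 CPM with that offset in 2 or more libraries. Exons with less signal were not analysed.

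The reads behind each value were recovered from its steps: all 236867 nonzero values fell on hundredths of a read (largest misfit 2.1e-10 reads) and 54.0% on whole reads, since the authors' counts hold reads shared between exons. Whether counting used the strand is not given in the sources used here, so genes that overlap on either strand cannot be told apart. Besides dpy-8, this holds for others of the named genes. Among them are act-4, pdi-2, let-2, vit-2, vit-3, vit-4, col-19, lpr-3, sdc-2 and bus-8.

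Reads were pooled over the listed exons of a gene. Log2 ratios of 2 libraries were taken after adding 0.5 reads to each, for genes with at least 20 reads summed over both, in 7 comparisons, and 2-fold was the threshold for a count. Ratios of single genes were taken without added reads, with exact binomial 95% intervals. Where a library had no read a bound against 3 reads is given. Groups came from the sample labels, and 1 library per condition allows no test across conditions. The detection of exons at equal depth was computed from the hypergeometric distribution.

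Named genes were the 10 X genes with the most reads, X members of the lists with over 20 reads in a library, and the 5 X genes highest and lowest in each mutant (by the smaller of its 2 log2 ratios) and in WT (L3) over WT (L2) and WT (L4) over WT (L3), with at least 30 reads where high. The members and lists were chosen with earlier results of these data known. The scripts were tested on simulated data. Tables were handled with pandas 2.3.3 and numpy 2.4.6 under Python 3.11.15, intervals were computed with scipy 1.17.1, plots were drawn with matplotlib 3.10.9, and overlapping genes came from Ensembl release 115 of the same assembly.

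The alternatives were other minimum reads, levels and thresholds, 2 reads added, centred ratios, exon medians of the deposited values, each autosome alone and gene lists left out. The 75th percentile, the 3′ exon alone and sums over genes grouped by level were added after seeing the data.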

Additional observations from a re-analysis of the deposited data

Results flagged for a closer look

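The difference between X and autosomes was above 0 in R244H and near or below 0 in gk165. The median log2 ratio of X genes minus that of autosomal genes was 0.87 in R244H over WT (L4) and 1.16 in R244H over WTR, and -0.08 in gk165 over WT (L2) and -0.21 in gk165 over WT (L3). Against WT (L2) the gk165 value has no stable sign, at 0.02 with at least 50 reads and 0 from exon medians. The difference between the mutants was not tested, and with 1 library each it rests on libraries that also differ in stage.

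Reads on the 12 mitochondrial exons lie outside the comparison of X with autosomes. They made up 2.16% of all reads in R244H, against 0.83% in WTR and 0.716% in WT (L4), and 1.73% in gk165, against 1.14% in WT (L2) and 1.16% in WT (L3). Both mutant libraries were above their controls, and the differences have no replicate check.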

How the results depend on the processing

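The differences between X and autosomes in R244H over either control, WTR over WT (L4), gk165 over WT (L3) and WT (L4) over WT (L3) kept their sign under all settings run over whole chromosomes. Those near 0 did not: gk165 over WT (L2), at -0.08, gave 0.02 with at least 50 reads, and WT (L3) over WT (L2), at 0.03, gave -0.02 from exon medians. Without the yolk genes the X share was 12.1% in R244H, 8.08% in WTR, 8.97% in WT (L4) and 9.18% in gk165, so gk165 was no longer the lowest. Without the germline and sperm lists it was 9.92% in WTR and 10.4% in WT (L4). For the log2 level of X to autosomes, exon medians of the deposited values gave 0.46 in R244H, -0.75 in WTR and -0.51 in WT (L4). Genes with a mean of at least 20 RPKM gave 0.06 in gk165, which turns its sign, 0.40 in R244H, -0.61 in WTR and -0.48 in WT (L4). The 75th percentile gave -0.85 in WTR, 0.08 in WT (L2), -0.01 in WT (L3), which turns its sign, and -0.69 in WT (L4). Against each autosome alone the level ran from -0.36 to 0.03 in gk165, where the sign also turns, 0.18 to 0.39 in R244H, -1.34 to -0.63 in WTR, 0.19 to 0.55 in WT (L2), 0.01 to 0.32 in WT (L3) and -1.09 to -0.47 in WT (L4). For the X minus autosome log2 ratio, genes with at least 50 reads gave 0.75 in R244H over WT (L4), 0.94 in R244H over WTR and -0.54 in WT (L4) over WT (L3). Exon medians gave 0.77, 0.88 and, in gk165 over WT (L3), -0.52, and the 3′ exon alone gave 0.66, 0.81, -0.17 in WTR over WT (L4) and -0.48 in WT (L4) over WT (L3). Centred on the autosomal median, the counts were 321 higher and 26 lower in R244H over WT (L4), 367 higher in R244H over WTR, and 62 higher and 49 lower in WT (L3) over WT (L2). At 3-fold they were 72 higher and 74 lower in gk165 over WT (L2), 65 higher over WT (L3), 79 and 19 in R244H over WT (L4), 86 and 20 over WTR, 4 and 15 in WTR over WT (L4), 49 and 4 in WT (L3) over WT (L2), and 105 lower in WT (L4) over WT (L3). The cause of these shifts was not tested, apart from fewer genes passing a stricter threshold. Adding 2 reads moved no count by over 1.5 times. No paired analysis was possible because each condition has 1 library and no labels share a replicate number, and no replicate could be left out for the same reason. At a median of 3 to 8.5 reads per X gene, most low genes could not be compared.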

Other observations

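Chromosome V stood apart from the other autosomes. It had the lowest relative level of the 5 in the 4 wild-type and WTR libraries and the highest in gk165. The log2 ratio of its median gene level to that of the other autosomes was 0.05 in R244H, against -0.60 in WTR and -0.52 in WT (L4), and 0.27 in gk165, against -0.26 in WT (L2) and -0.22 in WT (L3). In the mutants its genes exceeded the autosomal median ratio by 0.23 in R244H over WT (L4), by 0.23 in R244H over WTR, by 0.31 in gk165 over WT (L2) and by 0.23 in gk165 over WT (L3). Of the annotated protein-coding genes of V 47.4% have a listed exon, the lowest share of the 6 nuclear chromosomes.

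Along X the level of the median gene relative to autosomes was uneven. In WT (L4) its log2 ratio was -1.22 in the first 3 Mb and -1.23 from 12 to 15 Mb, and between -0.80 and -0.75 in the other segments. In R244H the first segment was at -0.06 and the others between 0.23 and 0.51.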
